A study of Homo sapiens with 9 samples.

Results

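Genes of cytosolic ribosomal proteins were examined in HT29, an established human colorectal adenocarcinoma cell line. They were picked out by symbol, as genes named RPL or RPS with a number and, in some, a suffix A, X, L, AL or L1. RPLP0, RPLP1, RPLP2 and RPSA were added, and the set was chosen with earlier results of these data known. This gave 69 of the 11664 gene names present in at least 1 of the 3 deposited tables, and all 69 were annotated in GENCODE release 29. Of these, 63 were canonical ribosomal proteins and 6 were paralogs with a symbol ending in L or L1 (RPL7L1, RPL22L1, RPL26L1, RPL36AL, RPL39L and RPS27L). The annotation holds 85 protein-coding genes with such symbols. The other 16 were in no table and were not analysed here (among them RPL3L, RPL10L, RPL21, RPL22, RPL23, RPL23A, RPL24, RPL26, RPL27A, RPL34, RPL36A, RPL38, RPS25, RPS26 and RPS27A).

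The study sequenced RNA of HT29 cells in 9 libraries, 3 in each of 3 groups, to ask how epiploic adipose tissue (EPAT), the fat appendages of the colon, acts on colon cancer cells. Control cells were grown to partial confluency and kept without serum for 24 h. The ESC CM group received for 24 h a conditioned medium (CM) in which stromal cells isolated from EPAT (ESC) had grown. The CRC-MPS CM group received for 24 h the CM of a microphysiological system in which minced EPAT and green fluorescent HT29 cells lay between ESC sheets, with obese EPAT named in the series design. The microphysiological system was kept in medium with fetal bovine serum, and its medium was diluted with serum-free medium before use, so serum carried over and the products of the cultured cells cannot be told apart in a comparison with serum-starved control. The replicates are numbered as biological and the methods describe independent repeats in general, but the sources used here do not tie these libraries to cultures or to EPAT donors. The p-values therefore measure only the spread between these samples.

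Each table compared 2 groups and gave TPM values, a length-scaled share of a library's transcripts, in 6 libraries. A gene was in a table only if the authors' own p-value for that comparison was below 0.05. Of the ribosomal protein genes, 66 were in the table of CRC-MPS CM and control, 61 in that of ESC CM and control, 29 in that of the CM, and 22 in all 3. Listed genes had therefore already passed a filter on difference, and their counts do not describe the unlisted genes. TPM values are shares, so a fall means a smaller part of the messenger RNA and not necessarily fewer molecules, and in bulk RNA fewer expressing cells and less RNA per cell cannot be told apart. Read depth is not given in the tables. Of 10 colonic epithelial markers 9 were in the CRC-MPS CM table, 6 called lower and 2 higher, and summed to 8850.6 to 10307 TPM with CRC-MPS CM and 11883 to 13109 TPM in control. KRT8 was the most abundant, at 5421 ± 345 TPM in control and 4173 ± 393 TPM with CRC-MPS CM (SD, n = 3). Of 10 stromal markers 2 were in the CRC-MPS CM table, summing to 0.813 to 2.00 TPM with CRC-MPS CM and 1.29 to 2.73 TPM in control, and none was in the ESC CM table. Of 10 adipocyte markers 3 were in the CRC-MPS CM table, summing to 197 to 207 TPM with CRC-MPS CM and 223 to 243 TPM in control, nearly all of it PNPLA2 and PPARG. ADIPOQ, PLIN1, LEP and FABP4, the defining adipocyte genes, were in no table and were not analysed here. Of 10 leukocyte markers 4 were in the CRC-MPS CM table, 1 called higher and 3 lower (background 41.6% and 39.1%). They summed to 1680 to 1716 TPM with CRC-MPS CM and 1964 to 2253 TPM in control, nearly all of it LYZ. CD163 was the higher gene, at 0.163 TPM in control and 1.14 TPM with CRC-MPS CM. Of 10 endothelial markers 4 were in the ESC CM table, summing to 33.9 to 36.6 TPM with ESC CM and 37.9 to 47.5 TPM in control. The part of these markers in the results was not tested.

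A ribosome is built from ribosomal RNA and a set of proteins present in nearly equal numbers, and the messenger RNAs of these proteins are among the most abundant in a dividing cell. Most of them belong to the TOP class, whose transcripts start at a C followed by an unbroken run of pyrimidines, the 5′ terminal oligopyrimidine tract. The tract lets LARP1 and the growth-sensing kinase complex mTORC1 switch translation of the whole class on or off with serum and nutrients, largely without a change in messenger RNA level. New ribosomal proteins are escorted by chaperones and import receptors to the nucleolus, where factors of ribosome biogenesis assemble the subunits.

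The annotated transcription starts of these genes were searched for such a tract. RefSeq promoters of GRCh38.p14, the genome build of the submitters' notes (hg38), were given for 56 of the 69 genes. A start was counted as TOP-like when its first base was C and opened a run of at least 5 C or T bases on the transcribed strand, taking the longest run of a gene's annotated starts. This held for 37 of the 56 genes (66.1%), against 1404 of all 27305 genes with a promoter entry (5.14%). It held for 32 of 44 canonical genes called lower against control in at least 1 comparison (72.7%), for 4 of 7 other canonical genes and for 1 of 5 paralogs. The match describes these letters only. Starts used in HT29 were not mapped, so a gene that misses the rule may still carry a tract near its annotated start. RPL5, RPL7, RPL8, RPL30, RPL37, RPL39L, RPS2, RPS15A and RPS20 were among those with no entry.

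The 6 genes that fell most with CRC-MPS CM are shown first, because their annotated starts meet this rule. Windows hold 10 bases before the start and 20 from it on, with the run in capitals.
RPL10, chrX:154398367-154398396, plus strand: ggaggagcgcCTCTTTCCCTTCggtgtggt
RPS14, chr5:150449720-150449749, minus strand: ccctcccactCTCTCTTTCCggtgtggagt
RPLP0, chr12:120201092-120201121, minus strand: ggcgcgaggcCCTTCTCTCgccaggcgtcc
RPS18, chr6:33272065-33272094, plus strand: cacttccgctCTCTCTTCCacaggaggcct
RPL12, chr9:127451387-127451416, minus strand: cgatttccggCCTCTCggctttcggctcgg
RPS9, chr19:54200848-54200877, plus strand: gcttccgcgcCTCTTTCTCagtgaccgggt

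The runs of these 6 genes are 12, 10, 9, 9, 6 and 9 bases long. The paralogs, which rose, are shown beside them because only RPL22L1 among those with an entry meets the rule, and the others have no capitals. RPS24, a canonical gene measured higher with both CM, is added because its start carries a run of 14.
RPL22L1, chr3:170870176-170870205, minus strand: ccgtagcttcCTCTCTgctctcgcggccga
RPS27L, chr15:63157458-63157487, minus strand: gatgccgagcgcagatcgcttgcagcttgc
RPL26L1, chr5:172958719-172958748, plus strand: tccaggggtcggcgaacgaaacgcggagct
RPL36AL, chr14:49620607-49620636, minus strand: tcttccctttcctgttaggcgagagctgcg
RPL7L1, chr6:42879606-42879635, plus strand: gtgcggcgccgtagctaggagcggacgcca
RPS24, chr10:78033853-78033882, plus strand: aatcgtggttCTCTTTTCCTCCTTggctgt

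Ribosomal protein messenger RNAs made up a large part of every library. The 59 genes listed in both tables against control summed to 124473, 121875 and 122946 TPM in the control libraries, 12.2 to 12.4% of a library's TPM total. With CRC-MPS CM the sum was 100239, 95854 and 94723 TPM, or 96939 ± 2913 against 123098 ± 1306 in control (SD, n = 3). In the other table the sum was 101887, 102238 and 102641 TPM with ESC CM and 123336 ± 1389 TPM in control. Every library with CM lay below every control library. These genes were listed because they differed in the same comparisons, so the separation of the sums follows in part from the listing. It is a description and no separate support, and no like sum was made over other listed genes. The same libraries scaled for different tables differed by at most 2.23% for any of these genes, so levels are compared below only within a table.

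**Figure D1:**
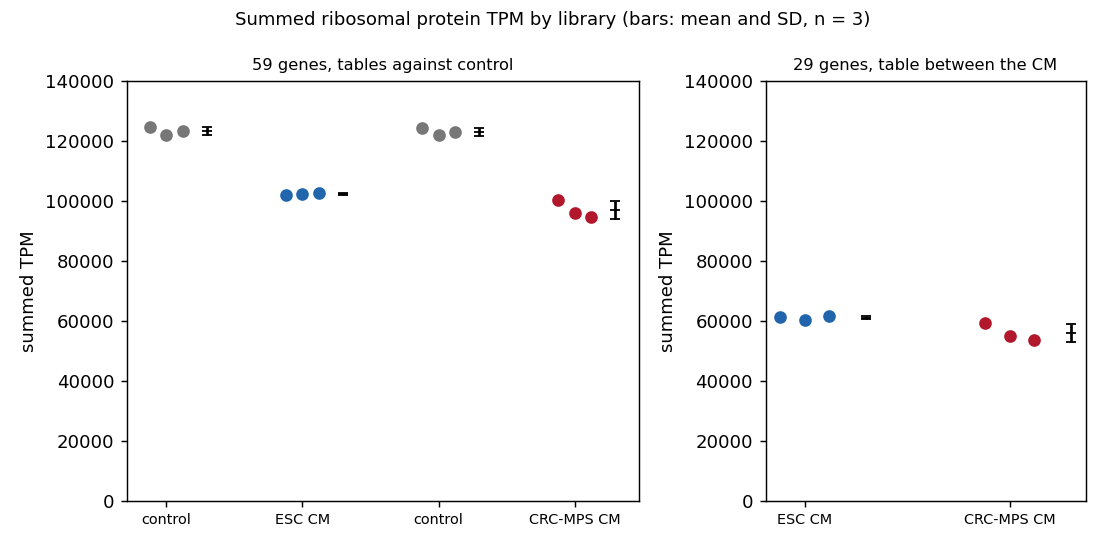
Summed TPM (linear axis from 0) of ribosomal protein genes in each library, with 59 genes in the tables against control (left) and 29 genes in the table of the CM (right); points are libraries, and bars beside them are the mean and SD of 3. On the left the lowest control library is at 121875 TPM and the highest library with CM at 102641 TPM, and the ESC CM libraries lie above the CRC-MPS CM libraries on the right. All genes summed had passed the authors' p in the comparison shown, which favours such a separation.

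The first comparison was of CRC-MPS CM with serum-starved control. Of 77 canonical ribosomal protein genes 60 were listed, and most of these fell by a modest amount. All 6 listed paralogs, of 8 by symbol, rose. Genes that were not listed are not covered by these counts. Of the 66 listed genes 53 were called lower and 7 higher at an adjusted p below 0.05 (limma on log2(TPM + 1), Benjamini-Hochberg over 25000 tests, so that unlisted genes count as not passing). The background was a call of lower in 39.1% and of higher in 41.6% of the 10019 genes of the table. The canonical genes gave 53 lower and 1 higher of 60. By subunit, 25 of 26 small-subunit and 28 of 34 large-subunit canonical genes were lower. The median log2 fold change on the log2(TPM + 1) scale was -0.34 for canonical genes, 0.63 for paralogs and -0.01 for all listed genes. Groups did not overlap for 65 of the 66 genes, but this was so for 89.4% of all genes in the table. A fold over 1.5 in addition left 3 lower and 4 higher ribosomal protein genes, against 20.1% and 20.4% of the table.

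RPL10, a late-joining large-subunit protein next to the catalytic centre, was the most abundant member in control and fell most. Its level was 5073, 4979 and 4906 TPM in control and 3260.1, 3061 and 2969.5 TPM with CRC-MPS CM. The log2 fold change was -0.69 (SE 0.06, adjusted p = 3.44e-05, limma), with the highest treated library far below the lowest control library. RPS14, a small-subunit platform protein encoded in the region lost in 5q- syndrome, went from 2162, 2084 and 2048 TPM to 1466, 1351 and 1312 TPM (log2 fold change -0.61, SE 0.06). RPLP0, the base of the stalk that recruits translation factors, went from 3319, 3349 and 3146 TPM to 2277, 2134 and 2069 TPM (-0.60, SE 0.06). These 3 genes were those lower by more than 1.5 times. RPL12, which sits at the foot of the same stalk, went from 2414, 2447 and 2465 TPM to 1684, 1640.2 and 1634 TPM (-0.56, SE 0.05). Its libraries were the tightest of these genes, with an SD of 26.0 TPM in control and 26.9 TPM with CRC-MPS CM. RPS18, a protein of the small-subunit head, went from 3889, 3785 and 3853 TPM to 2684, 2533 and 2510.2 TPM (-0.58, SE 0.05). RPS9, which binds early to the small-subunit RNA, went from 2316, 2277 and 2160.3 TPM to 1636, 1479 and 1462 TPM (-0.56, SE 0.06). In each of these 6 genes replicate 1 was the highest of the CRC-MPS CM libraries, and no library overlapped with control.

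The remaining stalk proteins moved less than RPLP0. RPLP1, an acidic stalk protein, was at 1846, 1805 and 1703 TPM in control and 1567, 1543 and 1492 TPM with CRC-MPS CM (log2 fold change -0.22, SE 0.05, adjusted p = 0.0125, limma), a call lost without CRC-MPS CM replicate 2 or 3 or control replicate 1 (-0.22 to -0.19). RPLP2, its partner, was at 1705, 1719 and 1615 TPM and at 1611, 1500.3 and 1455 TPM (-0.14, SE 0.06, adjusted p = 0.109, limma), which did not pass. It passed without CRC-MPS CM replicate 1 (-0.18), with scaling to the total of the other genes (-0.20) and with adjustment over the genes of the table alone (-0.14). Whether RPLP0 differed from its partners was not tested.

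Of the other abundant members, RPL41, the shortest of the proteins, was at 4230.5, 4472 and 4209 TPM in control and 3604, 3379.7 and 3291 TPM with CRC-MPS CM (-0.33, SE 0.06). RPL4, which lines the exit tunnel, fell from 4147, 4119 and 4171 TPM to 3516, 3294 and 3238 TPM (-0.31, SE 0.06). RPL13A, a large-subunit protein also known for a role in repressing inflammatory messenger RNAs, fell from 3965, 3943 and 4031 TPM to 2940.2, 2681 and 2657 TPM (-0.53, SE 0.06). All 3 passed the test and kept their libraries apart. Among canonical genes a higher level in control went weakly with a larger fall (Spearman's rho across 60 genes -0.27, a description over genes that share libraries). The control level enters both values, which by itself can make such a correlation negative.

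Members with roles outside the ribosome were spread over this range. RPS3, at the messenger RNA entry and also a DNA repair protein, fell from 3351, 3286 and 3158 TPM to 2671, 2377 and 2287 TPM (-0.42, SE 0.07). RPS6, the substrate of the S6 kinases, fell from 2600.2, 2599 and 2699.8 TPM to 2058, 2084 and 2071 TPM (-0.35, SE 0.05). RPSA, also known as a laminin receptor, fell from 1089, 1037 and 1016 TPM to 950.0, 936 and 889.9 TPM (-0.18, SE 0.05, adjusted p = 0.0297, limma). Its call was lost without CRC-MPS CM replicate 2 or 3 or control replicate 1 or 2, and in a fit without a trend of the variance with the level, with values between -0.19 and -0.15. RPL5, which with RPL11 and the 5S RNA restrains MDM2, was at 1519.9, 1458 and 1571 TPM and at 1335, 1399.8 and 1409 TPM (-0.13, SE 0.05, adjusted p = 0.0989, limma) and did not pass, except with adjustment over the genes of the table alone or under the other scalings (-0.17 and -0.20). RPL3, beside the catalytic centre, went from 2256, 2171 and 2149.7 TPM to 1625, 1507 and 1469 TPM (-0.52, SE 0.06), and RPS4X, an X-linked small-subunit gene, from 1145, 1185 and 1111 TPM to 926, 909.8 and 864 TPM (-0.35, SE 0.05).

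**Figure D2:**
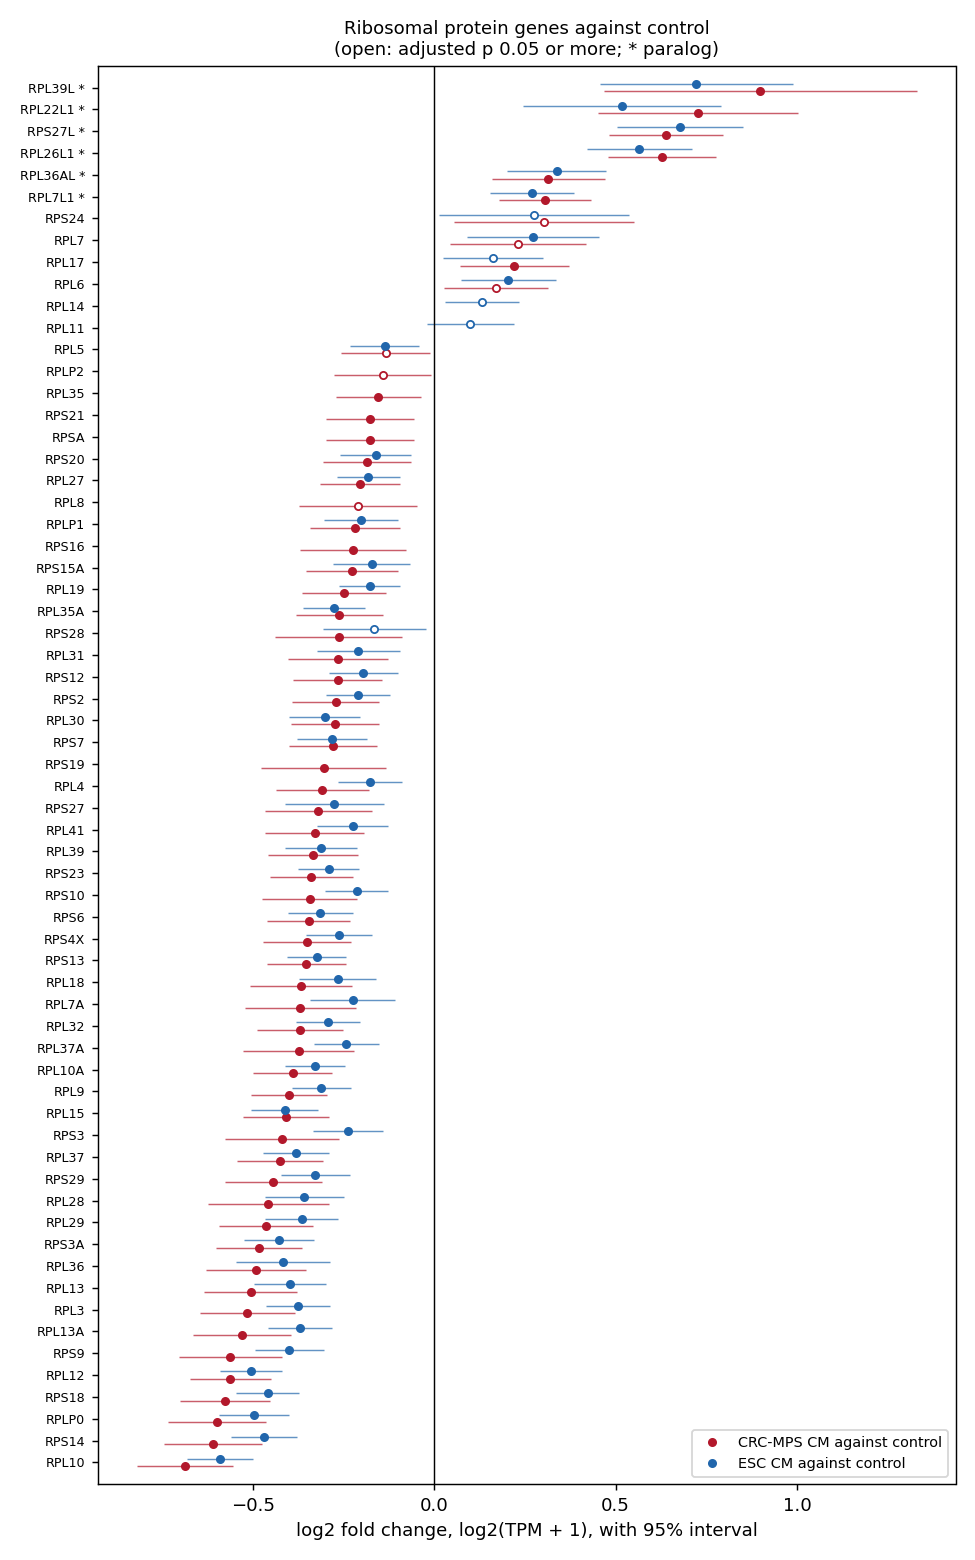
Log2 fold change on the log2(TPM + 1) scale (horizontal axis, with 95% intervals) of 64 ribosomal protein genes listed against control, for CRC-MPS CM (red) and ESC CM (blue); filled points have an adjusted p below 0.05, and asterisks mark paralogs. The paralogs fill the top of the plot on the right of 0, and 49 red and 44 blue points are filled on the left, RPL10 furthest out at -0.69 and -0.59.

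All 6 paralogs were called higher with CRC-MPS CM, and 4 of them by more than 1.5 times. RPL22L1, the paralog of RPL22 that takes its place in the large subunit, was at 105, 82.1 and 118 TPM in control and 155, 167 and 181 TPM with CRC-MPS CM (log2 fold change 0.73, SE 0.12, adjusted p = 0.00142, limma). RPS27L, an RPS27 paralog known as a p53 target, was at 101, 86.9 and 95.9 TPM and at 143, 146 and 155 TPM (0.64, SE 0.07). RPS27 itself fell from 3479, 3249.9 and 3684 TPM to 2898, 2674 and 2764 TPM (-0.32, SE 0.07) and was far more abundant than the paralog. RPL26L1, nearly identical to RPL26, rose from 46.9, 42.6 and 46.9 TPM to 72.6, 70.6 and 69.1 TPM (0.63, SE 0.07). RPL36AL, nearly identical to RPL36A, rose from 197, 215 and 183 TPM to 253, 253 and 235 TPM (0.31, SE 0.07). RPL7L1, which in spite of its name is related to a yeast assembly factor of the large subunit, rose from 102, 96.6 and 94.5 TPM to 118, 122.6 and 122 TPM (0.30, SE 0.06). RPL39L, the paralog of RPL39 best known from male germ cells, was close to absent, at 0.330, 0.699 and 0.480 TPM in control and 2.80, 1.58 and 1.21 TPM with CRC-MPS CM (0.90, SE 0.19, understated at such levels by the added 1). RPL39 fell from 2705, 2689.8 and 2895 TPM to 2201, 2168 and 2202 TPM (-0.33, SE 0.05). Groups were apart for every paralog. RPL26L1, RPL36AL and RPL39L share sequence with abundant parents, and 846 pseudogenes in GENCODE carry names of the listed genes, so the split of reads among near-identical copies is uncertain for these values.

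**Figure D3:**
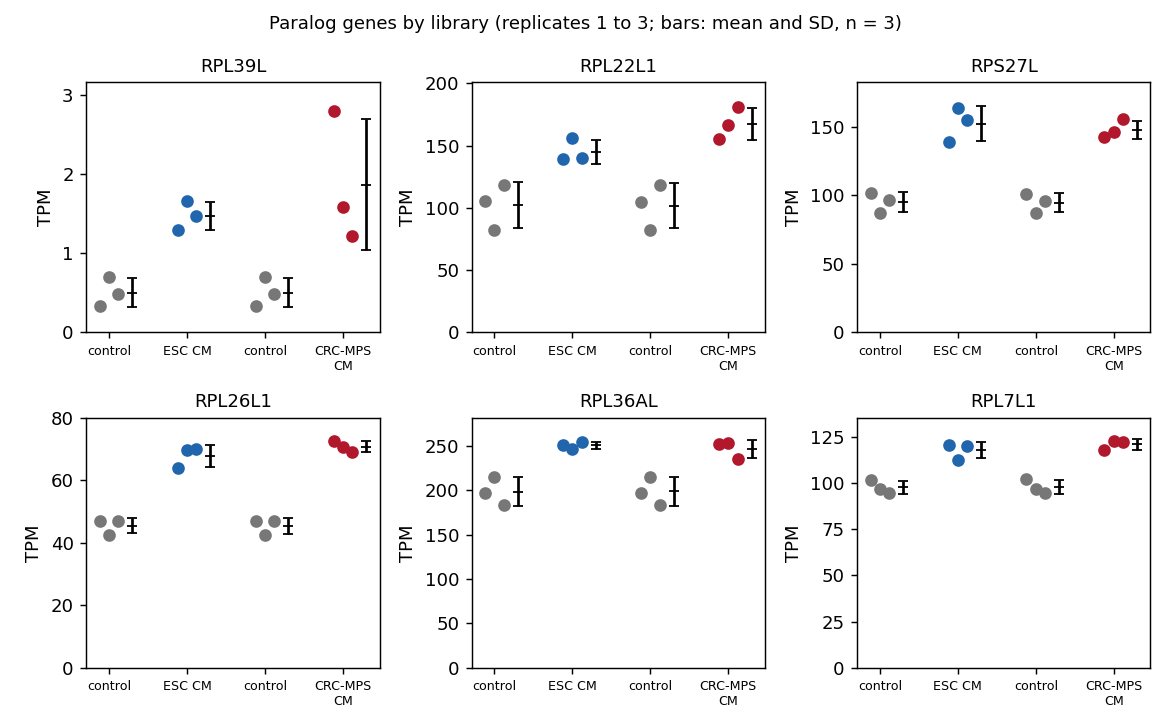
TPM (linear axes from 0) of the 6 paralogs in each library; points are replicates 1 to 3 from left to right, grey for control, blue for ESC CM and red for CRC-MPS CM, each beside the control values of its own table, and bars are the mean and SD of 3. All libraries with CM lie above all controls in every panel, and RPL39L stays below 3 TPM.

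A small set of listed canonical genes went the other way. RPL17, a large-subunit protein at the tunnel exit, was at 1271, 1145 and 1339.7 TPM in control and 1416, 1476 and 1476 TPM with CRC-MPS CM (log2 fold change 0.22, SE 0.07, adjusted p = 0.0295, limma) and was the only canonical gene called higher. Its call was lost without CRC-MPS CM replicate 2 or 3 or control replicate 1 or 2, without a trend, and under both other scalings, at 0.16 to 0.23. RPS24, a small-subunit protein with alternatively spliced transcripts, was at 2454, 2094 and 2935 TPM and at 3106, 2911 and 3131 TPM (0.30, SE 0.11, adjusted p = 0.0657, limma). It was the only listed gene with overlapping groups. RPL7 was at 1514, 1301 and 1649.6 TPM and at 1772, 1716 and 1725 TPM (0.23, SE 0.08, adjusted p = 0.065, limma), and RPL6 at 1407, 1292 and 1499.9 TPM and at 1575, 1556 and 1582 TPM (0.17, SE 0.06, adjusted p = 0.0756, limma), neither passing the test. Control replicate 2 was the lowest control in all 4 of these genes, and in 7 of the 10 listed genes measured higher against 17 of the 56 measured lower. Without it 6 of the 66 listed genes were called higher, against 36.49% of all genes in the table, and RPL17 was at 0.16. Control replicate 3 was the highest control in the same 4 genes. Without it 10 were called higher, against 39.4% of all genes in the table, with RPS24 (0.43), RPL7 (0.31) and RPL6 (0.22) among the 10. With adjustment over the genes of the table alone 10 were also called higher, against 45.87% of all its genes.

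The same question for ESC CM gave a like set of genes with smaller folds. Of 61 listed genes 48 were called lower and 8 higher, against a background of 40.7% lower and 42.0% higher among 10007 genes (limma, as above). Canonical genes gave 48 lower and 2 higher of 55, with 20 of 22 in the small subunit and 28 of 33 in the large subunit lower. The median log2 fold change was -0.28 for canonical genes, 0.54 for paralogs and -0.05 for all listed genes. With a fold over 1.5, 1 was lower (RPL10) and 2 higher (RPL39L and RPS27L), against 20.1% and 17.6% of the table.

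RPL10 again led, at 5073, 4981 and 4912 TPM in control and 3341, 3257 and 3331 TPM with ESC CM (log2 fold change -0.59, SE 0.04, adjusted p = 1.35e-05, limma). RPL12 fell from 2414, 2448 and 2468 TPM to 1719, 1741 and 1699.8 TPM (-0.51, SE 0.04). RPLP0 fell from 3329.6, 3354 and 3153 TPM to 2343, 2296 and 2326 TPM (-0.50, SE 0.04). Treated replicates were close together, with an SD of 20.6 TPM for RPL12 and 24.0 TPM for RPLP0. RPS14 was at 1518, 1502 and 1530.1 TPM with ESC CM (-0.47, SE 0.04), RPS18 at 2789, 2819.6 and 2781 TPM (-0.46, SE 0.04), and both were below every control. RPS3A, a small-subunit protein near the messenger RNA exit, completed the 6 largest falls, from 2989, 2946 and 2811 TPM to 2209.9, 2129 and 2159 TPM (-0.43, SE 0.04).

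Of the genes fixed for their roles, RPS6 was at 2139.9, 2095 and 2106 TPM with ESC CM against 2592, 2596 and 2699 TPM in control (-0.31, SE 0.04), and RPS3 at 2774, 2721 and 2820.2 TPM against 3353, 3289 and 3163 TPM (-0.24, SE 0.04). RPLP1 was lower (-0.20, SE 0.04) and RPLP2 and RPSA were not in this table. RPL5 passed here, from 1513, 1456 and 1570.5 TPM to 1369, 1364 and 1394 TPM (-0.14, SE 0.04, adjusted p = 0.0341, limma), but lost its call without control replicate 1, any of the ESC CM replicates or a trend, at -0.15 to -0.13. RPL11 was at 1839.5, 1655 and 1859 TPM in control and 1866, 1937 and 1924 TPM with ESC CM (0.10, SE 0.05, adjusted p = 0.252, limma) and did not pass.

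The 6 paralogs were again all called higher. RPS27L was at 139, 164 and 154 TPM with ESC CM against 101, 87.0 and 96.1 TPM (log2 fold change 0.68, SE 0.08), and RPL22L1 at 139, 156 and 140.1 TPM against 105, 82.2 and 119 TPM (0.52, SE 0.12). RPL26L1 was at 63.9, 69.6 and 70.1 TPM against 47.0, 42.6 and 46.9 TPM (0.57, SE 0.06). RPL36AL (0.34, SE 0.06), RPL7L1 (0.27, SE 0.05) and RPL39L, at 1.29, 1.65 and 1.47 TPM (0.72, SE 0.12), completed the group. None of the 6 overlapped with control, but this was so for 90.6% of all genes in the table. The canonical genes called higher were RPL6, at 1563, 1629 and 1629 TPM against 1401, 1290.0 and 1499 TPM (0.20, SE 0.06, adjusted p = 0.0233, limma), and RPL7, at 1735, 1833 and 1804 TPM against 1513, 1301 and 1652 TPM (0.27, SE 0.08, adjusted p = 0.0275, limma). The RPL6 call was lost without ESC CM replicate 2 or 3, control replicate 1 or 2, a trend, or with scaling to the total of the other genes, at 0.15 to 0.21. The RPL7 call was lost without control replicate 1, any of the ESC CM replicates or a trend, at 0.26 to 0.30, and with that scaling (0.22). RPL17 (0.16, SE 0.06, adjusted p = 0.0752, limma) and RPS24 (0.27, SE 0.11, adjusted p = 0.118, limma) did not pass, but did without control replicate 3 (0.21 and 0.40).

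The comparisons with control share the 3 control libraries, so their values are set side by side and not counted as separate support. Of the 59 genes in both tables, 47 were called lower with both CM, 6 (the paralogs) higher with both, and 0 in opposite directions. Of all genes in the CRC-MPS CM and ESC CM tables, 39.1% and 40.7% were called lower and 41.6% and 42.0% higher. Joint counts over all genes were not made. RPL10 was at -0.69 (CRC-MPS CM) and -0.59 (ESC CM), RPS14 at -0.61 and -0.47, RPS3 at -0.42 and -0.24, and RPL15, a core large-subunit protein, at -0.41 and -0.41. Of the 49 measured lower with both, 43 lay further below control with CRC-MPS CM, a count not made over all genes. For paralogs RPL22L1 was at 0.73 and 0.52, RPS27L at 0.64 and 0.68, and RPL36AL at 0.31 and 0.34.

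**Figure D4:**
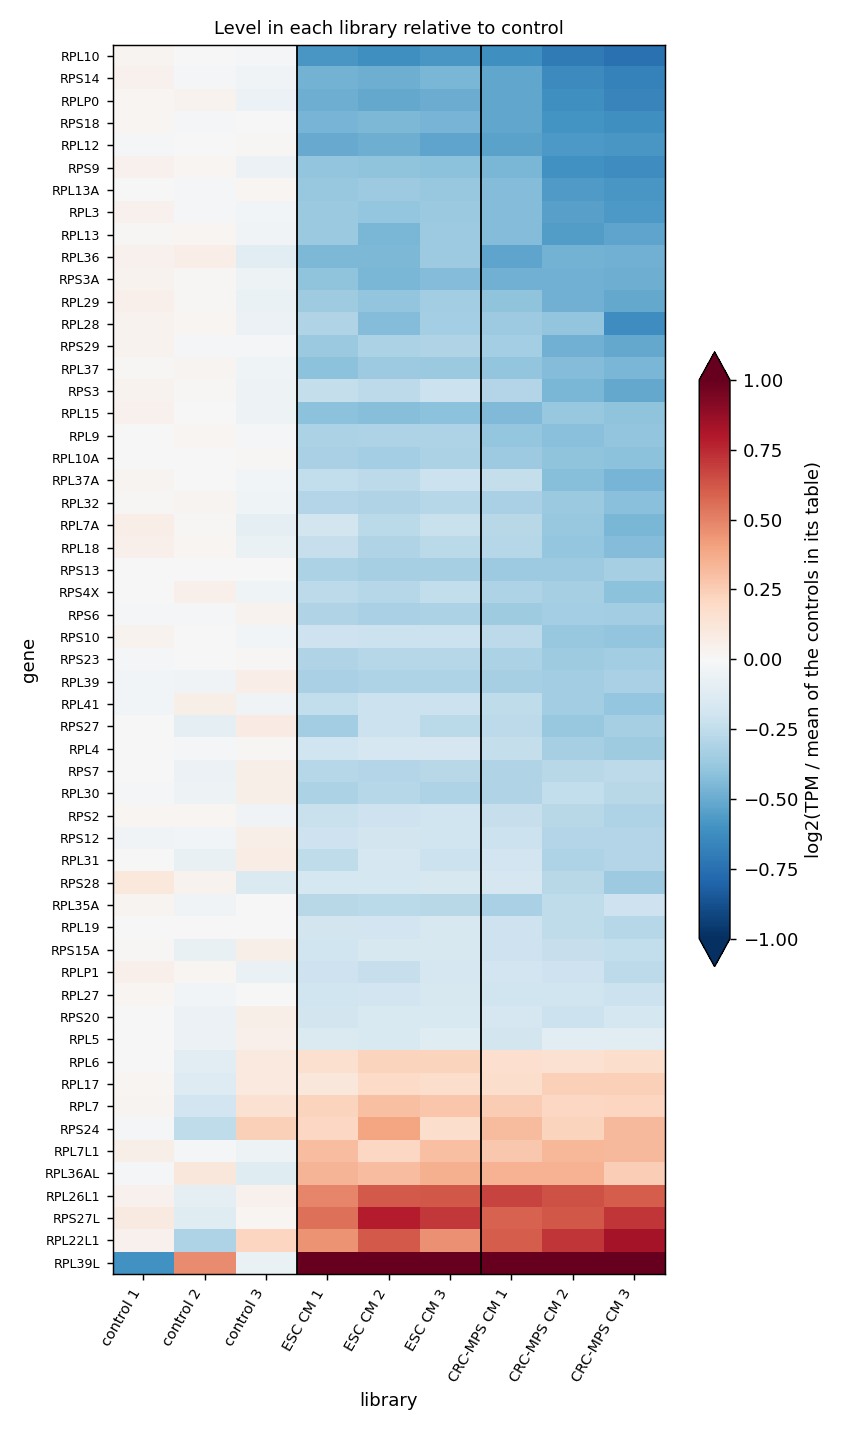
Colour map of the log2 ratio of TPM to the mean of the controls in the same table, for 55 ribosomal protein genes (rows) in 9 libraries (columns, control values from the CRC-MPS CM table), with colours capped at -1 and 1. The CM columns are blue for 45 of these genes and red for 10, and among CRC-MPS CM libraries replicate 1 is the palest for most blue rows.

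The direct comparison of the CM asked how the medium of the full system, with adipose tissue and HT29 cells, differed from that of stromal cells alone. None of the 29 listed genes was called in either direction, against 0.247% lower and 1.02% higher of 2835 genes in the table, and none with a fold over 1.5 (background 0.212% and 0.952%). At an unadjusted p below 0.05 in limma 15 were lower and 1 higher, but 63.2% of all genes in this preselected table passed that level. Of the 29, 28 were measured lower with CRC-MPS CM and RPL22L1 was measured higher. Their median log2 fold change was -0.12, against 0.15 for all genes in the table, and -0.21 against 0.05 under median-of-ratios scaling. Groups did not overlap for 19 of the 29, and for 63.6% of all genes.

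RPS3 had the largest fall, at 2774, 2722 and 2822 TPM with ESC CM and 2672, 2381 and 2290.2 TPM with CRC-MPS CM (log2 fold change -0.18, 95% interval -0.32 to -0.04, adjusted p = 0.421, limma). RPLP2 was at 1758, 1657 and 1751 TPM and at 1609, 1518 and 1456 TPM (-0.17, interval -0.29 to -0.05, adjusted p = 0.366, limma), and RPS9 at 1719, 1713 and 1705 TPM and at 1637, 1486 and 1464 TPM (-0.17, interval -0.29 to -0.04). In RPS9 the gap was widest for CRC-MPS CM replicates 2 and 3. RPL10, which led both falls against control, was at 3339.9, 3258 and 3333 TPM and at 3262, 3063 and 2973 TPM, with overlapping groups (-0.10, interval -0.21 to 0.02). RPL22L1 was at 139, 156 and 140.3 TPM with ESC CM and 155, 167 and 181 TPM with CRC-MPS CM, also overlapping (0.21, interval 0.04 to 0.37, adjusted p = 0.458, limma). The intervals leave room for a difference of about these sizes and do not show that the CM act alike.

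CRC-MPS CM replicate 1 stood apart from its group in these genes. It was the highest of its group in 27 of the 28 genes measured lower. It was below all ESC CM libraries in 19 of the 28, and replicates 2 and 3 were in all 28. Such counts were not made over all genes of the table. There too calls rose without replicate 1, from 7 to 287 lower and from 29 to 460 higher of 2835 genes. The 29 genes summed to 61280, 60457 and 61494 TPM with ESC CM and to 59301, 54892 and 53500 TPM with CRC-MPS CM. Without replicate 1, 14 of the 29 were called lower and 0 higher, with a background of 10.1% lower and 16.2% higher, and RPS3 was at -0.25 and RPS9 at -0.22. The remaining 2 libraries were then set against 3, and the count rests on leaving that library out. Read depth or another property of replicate 1 is not given in the tables.

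Genes that work with the ribosomal proteins were read from lists of known members. RACK1, a small-subunit scaffold whose name the symbol rule does not match, followed the canonical genes, at 2357, 2361 and 2237 TPM in control and 2053, 1872 and 1771 TPM with CRC-MPS CM (log2 fold change -0.29, SE 0.07), and -0.19 (SE 0.04) with ESC CM. FAU was in no table. Of 22 translation factors and other messenger RNAs of the TOP class, 14 were listed with CRC-MPS CM, 9 lower and 3 higher (background 39.1% and 41.6%), with a median of -0.23. EEF2, the elongation factor that moves the ribosome along, fell from 1536, 1531 and 1491 TPM to 949, 950.3 and 888 TPM (-0.71, SE 0.05), and EEF1G, part of the factor that recharges EEF1A, was at -0.52. NPM1, a nucleolar chaperone, rose from 1449.8, 1386 and 1545 TPM to 2169.9, 2277 and 2315 TPM (0.63, SE 0.06). With ESC CM 9 of 15 listed were lower and 5 higher (background 40.7% and 42.0%, median -0.16), with EEF2 at -0.63, TPT1, a growth-linked protein, at -0.37 and NPM1 at 0.60.

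Genes that make ribosomes moved the other way from most listed genes of the ribosome's own proteins. Of 32 nucleolar biogenesis factors, all listed, 30 were called higher and 1 lower with each CM, with medians of 0.67 for CRC-MPS CM and 0.59 for ESC CM. The background of genes called higher was 41.6% and 42.0% in these tables, and of genes called lower 39.1% and 40.7%, which also apply to the lists that follow. NOP58, a core protein of box C/D particles, was at 1.29 and 1.14. UTP15 and UTP20, of the small-subunit processome, were at 1.22 and 1.14 with CRC-MPS CM, TCOF1 and BOP1, needed for ribosomal RNA synthesis and large-subunit assembly, at 1.21 and 1.15 with ESC CM, and the endonuclease NOB1 was the gene called lower. Of 15 chaperones and import receptors of ribosomal proteins, 11 of 11 listed were higher with CRC-MPS CM (median 0.80) and 12 of 13 with ESC CM (median 0.62). BCCIP, a chaperone of RPL23, was at 57.9 ± 3.99 TPM in control and 193 ± 10.2 TPM with CRC-MPS CM (SD, n = 3; log2 fold change 1.72). It was at 1.56 with ESC CM, LTV1, a small-subunit assembly factor, at 1.10 and 0.93, RPF2, which loads RPL5 and RPL11, at 1.01 with CRC-MPS CM, and the import receptor IPO9 at 1.05 with ESC CM. Proteins of the mitochondrial ribosome, a separate machine, were called higher in 67 and lower in 2 of 71 listed genes with CRC-MPS CM (median 0.48) and in 68 and 2 of 71 with ESC CM (median 0.55).

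**Figure D5:**
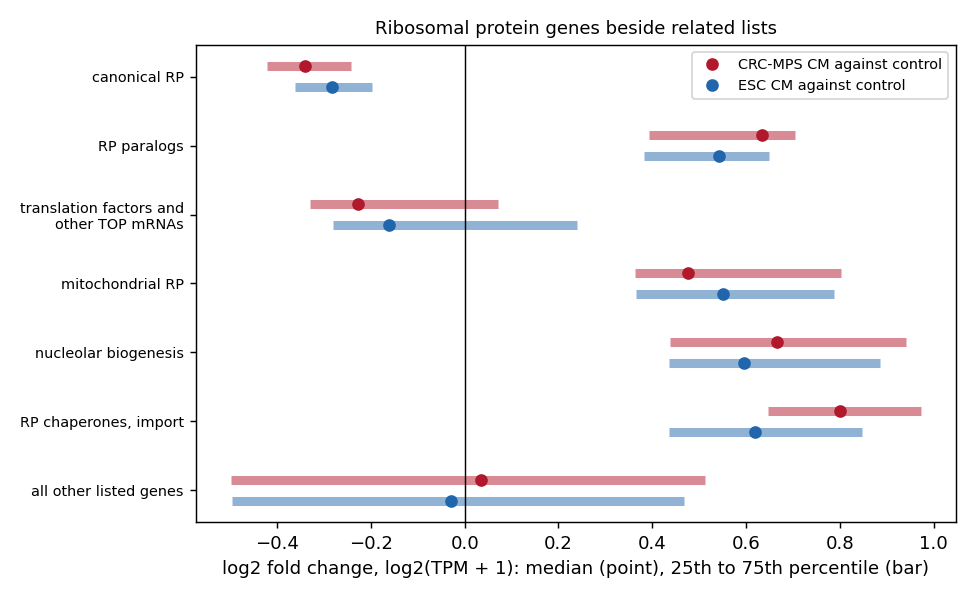
Median log2 fold change on the log2(TPM + 1) scale (points) and 25th to 75th percentile (bars) of the listed genes in each group against control, for CRC-MPS CM (red) and ESC CM (blue). Canonical ribosomal proteins lie at -0.34 and -0.28, while paralogs, mitochondrial ribosomal proteins, nucleolar factors and chaperones lie between 0.48 and 0.80.

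Regulators of TOP translation were mixed. The list held 15 genes of mTORC1, its regulators and targets, and regulators of TOP messenger RNAs, of which 13 were listed in each table. Of these, 8 were higher and 3 lower after CRC-MPS CM (background 41.6% and 39.1%), and 9 and 3 after ESC CM (background 42.0% and 40.7%). DEPTOR, an inhibitor inside the complex, was at 13.4 ± 3.61 TPM in control and 2.37 ± 0.140 TPM with CRC-MPS CM (log2 fold change -2.07), and at -1.85 with ESC CM. RPS6KB1, the kinase of RPS6, was at 1.02 and 0.65, and EIF4E, the cap-binding protein, at 0.94 and 0.80. LARP1 was listed with ESC CM alone, at 0.13 (adjusted p = 0.0793, limma). These are messenger RNA levels, and neither phosphorylation nor translation was measured.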

How the data were processed

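RNA of HT29 cells in 9 libraries (3 a group) was sequenced by the authors as paired ends. Per the submitters' processing notes, STAR 2.6.1d, kallisto 0.46.0 and DESeq2 were used with hg38, with no roles stated. The authors deposited 3 tables, each with TPM values of 6 libraries and the authors' fold changes and p-values. The deposited p-value was read only to test that it was below 0.05 in every row, and no comparison column was used. The sheets do not name the unit, and TPM was taken from the sums of the listed genes, 746530 to 752614 a library in the tables against control. Blank rows (631, in the ESC CM table) were dropped, and 14, 13 and 4 gene names turned into dates were not matched.

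Within each table log2(TPM + 1) was fitted with limma 3.58.1 (R 4.3.3, empirical Bayes with trend) over all listed genes, with Benjamini-Hochberg adjustment over 25000 tests. The fit was also run on simulated data with planted changes larger than those of the ribosomal protein genes. That run does not test the calls made here. Tables were summarised with Python 3.11.15 and pandas 2.3.3. Errors are SE of the fit or SD over 3 libraries. Read counts are not given, so depth is unknown and no counting interval was made. An exact permutation of 3 against 3 libraries could not go below p = 0.1 and was not used. Named genes were the 6 largest rises and falls per comparison, the most abundant in control, paralogs with their parents, and members fixed for their role. RPL6, RPL15, RPL17, RPS24, LARP1 and KRT8 were named after their values were seen. Members and lists were chosen with earlier results of these data known. Alternatives changed scaling, pseudocount, filter, adjustment, trend, replicate block and each library. Values of a few single genes are not reported here, although these genes stay in the fits, counts and sums.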

Additional observations from a re-analysis of the deposited data

How the results depend on the processing

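The calls against control kept to within 1.5 times under each alternative except the stricter threshold. A fold over 1.5 left 4 higher and 3 lower after CRC-MPS CM (20.4% and 20.1% of all listed genes). It left 2 higher and 1 lower after ESC CM (17.6% and 20.1%). Median-of-ratios scaling moved the median log2 fold change of ribosomal protein genes to -0.36 with CRC-MPS CM, -0.29 with ESC CM and -0.21 between the CM. Scaling to the total of the other genes moved it to -0.39 and -0.32 against control. Between the CM, adjustment over the listed genes alone gave 4 of 29 lower, close to the 12.35% of all listed genes. Leaving out each library in turn gave 0 to 14 lower, with 14 only without CRC-MPS CM replicate 1 (10.12% of all listed genes). Against control, leave-one-out gave 42 to 54 lower for CRC-MPS CM, against 32.7% to 36.65% of all listed genes. For ESC CM it gave 44 to 49 lower, against 35.22% to 38.03%. Of 1105 alternative values for 79 named values, 1037 stayed on their side of the threshold, 34 lost the call, 34 gained it and 0 reversed. RPL39L with ESC CM could not be fitted under a mean TPM of at least 1. Correlations of same-numbered libraries ran from -0.38 to 0.20, and those of other pairs from -0.19 to 0.31. They were taken on deviations within groups of 3 libraries and cannot decide whether replicate numbers pair the libraries. With a replicate block, CRC-MPS CM gave 10 higher and 54 lower, against 42.72% and 39.8% of all listed genes. ESC CM gave 8 and 44 (39.4% and 37.74%), and the CM against each other 0 and 0 (0.5291% and 0.1058%). Precision is limited by 3 libraries a group, and only genes past the authors' p were listed.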
